A study of Mus musculus with 6 samples.

Results

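Transcripts of the matrix metalloproteinase (MMP), ADAM, ADAMTS and TIMP genes were measured in the lungs of 6-day-old (P6) male mice, 3 labelled hSRY-ON and 3 labelled hSRY-OFF. The genes were those whose array symbol begins with Mmp, Timp or Adam and a number, or with Adamts, with 1 gene left out. They had 98 probes for 68 genes, of 25697 probes for 18138 symbols on the array. The labels give the strain of all mice as FVB, and the study's methods give it as FVB/N. The hSRY-ON mice carried a single copy of the Signalox-hSRY transgene at the H11 locus, in which the ubiquitously active CAG promoter drives a FLAG-tagged human SRY with EGFP once Cre has removed a DsRed2 segment. Cre protein left in the egg by a Ddx4-Cre mother, whose own Cre transgene acts in germ cells, recombined it in the one-cell embryo, and the hSRY-ON mice used for arrays did not themselves carry Ddx4-Cre. The label hSRY-OFF is the study's name for Signalox-hSRY mice without recombination, but its comparison mice are elsewhere called controls, a term for littermates lacking Signalox-hSRY, so the transgene status of the hSRY-OFF mice rests on their label. Human SRY itself was not measured, since the array carries mouse probes alone. The comparison asked which of these transcripts differed in the lung when human SRY was active from the start of development. The study reports that hSRY-ON pups suckled little and were growth-retarded by this age, and that some had died. Effects of this state and of human SRY in the lung itself cannot be told apart here.

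MMPs are zinc-dependent enzymes that cut collagens, elastin and other matrix proteins. Most are secreted as inactive proenzymes, whereas the membrane-type MMPs act at the cell surface. ADAMs are membrane-bound relatives that release growth factors, cytokines and receptors from cells, and many ADAMs occur only in the germ line. ADAMTS enzymes are secreted proteases of proteoglycans and procollagens, and the ADAMTS-like proteins share their matrix-binding part but lack the protease domain. TIMPs are the tissue inhibitors of these enzymes. In the newborn lung, matrix turnover accompanies the division of air sacs into alveoli.

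Each array gave an intensity per probe, which was corrected for background, normalized and put on a log2 scale. All levels below are these log2 values, listed in the order of replicates 1, 2 and 3, and a change is the hSRY-ON mean minus the hSRY-OFF mean. A probe counted as detected on an array at a detection p-value under 0.05, and it was tested where it was detected on at least 3 of the 6 arrays. A difference passed the test at an adjusted p under 0.05 in limma. Between 13191 and 14134 probes were detected per array. Correlations between arrays were 0.991 to 0.993 within hSRY-OFF, 0.972 to 0.980 within hSRY-ON and 0.935 to 0.959 between the groups. Markers of the lung epithelium were detected for 11 of 11 genes. The 3 arrays per group limit the precision of every value. In whole lung, fewer cells of a type and less RNA per cell cannot be told apart.

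Of the 98 probes, 42 were tested (42.9%, against 53.9% of all probes on the array), and they covered 35 of the 68 genes. A further 45 probes were not detected on any array, and 24 genes had no probe that was. Detection differed between the classes. All 6 TIMP probes, both gelatinase probes and all 3 ADAMTS-like probes were tested. None of the 22 probes for 15 germ-line or epididymal ADAM genes was tested, and 19 of them were not detected on any array. Of 14 probes for the 9 Mmp genes on chromosome 9, which encode collagenases, stromelysins and related enzymes, 2 were tested (those of Mmp1a and Mmp3). For the 12 other Mmp genes the number was 9 of 14. The collagenase-3 gene Mmp13 had a probe, ILMN_2737685, detected on 1 array, that of hSRY-ON replicate 2, where it read 6.30 against 4.77 to 5.12 elsewhere. The only probe for Adam10, the main sheddase of Notch receptors and cadherins, was not detected on any array, with values of 4.49 to 4.74. A probe that is not detected does not show that the transcript was absent.

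**Figure D1:**
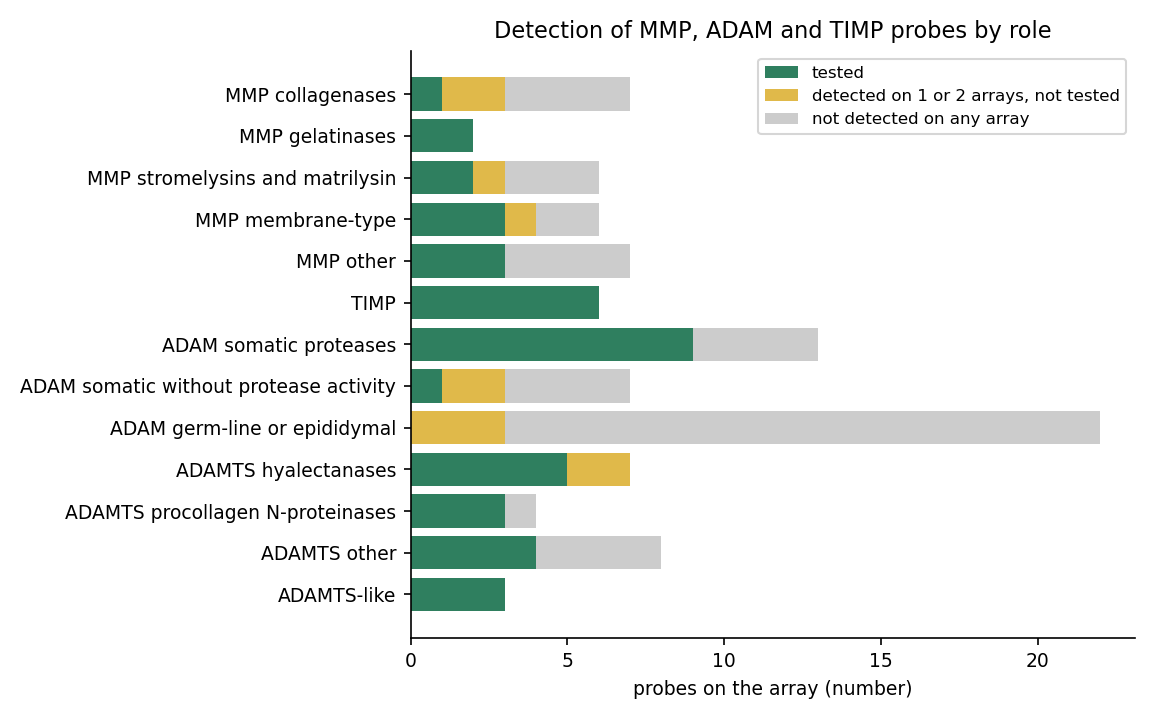
Number of probes for each class of MMP, ADAM, ADAMTS and TIMP genes on the array (horizontal axis), divided into tested probes, probes detected on 1 or 2 arrays and not tested, and probes not detected on any array. All 6 TIMP and all 3 ADAMTS-like probes were tested, and none of the 22 probes of germ-line or epididymal ADAM genes was.

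In the comparison of the groups, 15 of the 42 tested probes passed the test (35.7%), against 26.9% of all 13841 tested probes on the array. Higher in hSRY-ON were 9 probes for 8 genes (21.4%, against 13.6% of all tested), and lower were 6 probes for 6 genes (14.3%, against 13.3%). The genes that rose were the TIMP genes Timp1, Timp3 and Timp4, all 3 measured ADAMTS-like genes, Adam8 and Adam28. The genes that fell were Mmp11, Mmp17, Adam12, Adam15, Adamts7 and Adamts19. No MMP probe rose and no TIMP probe fell in limma, and at an unadjusted p under 0.05 the counts were 1 and 0. The groups did not overlap for 25 probes (59.5%), against 46.6% of all tested probes. A change of at least 2-fold was reached by 7 of the probes that passed (16.7% of those tested, against 9.7%). The median change was 0.06 for these genes and -0.03 for all tested probes, while the median size of the change regardless of sign was 0.49 and 0.32.

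**Figure D2:**
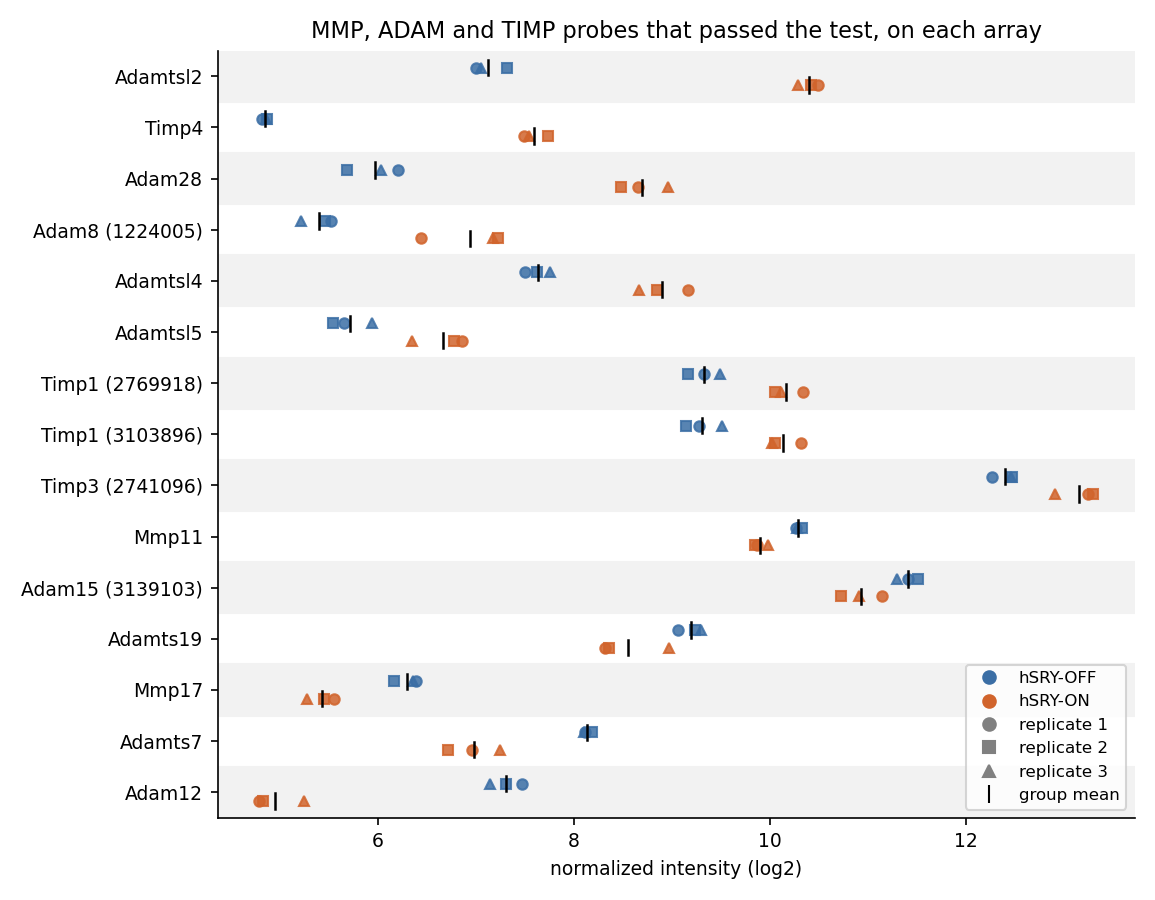
Normalized log2 intensity (horizontal axis) of the 15 probes that passed the test, on each of the 3 hSRY-OFF and 3 hSRY-ON arrays, with black bars at the group means and probe numbers in parentheses for genes with several tested probes. The groups did not overlap for any of the 15 probes, and the widest gaps were those of Adamtsl2, Timp4, Adam28 and Adam12.

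Of the 6 probes of the inhibitors, 4 were higher in hSRY-ON, and the median change of the 6 was 0.79. Timp4, an inhibitor first known from the heart, read 4.82, 4.87 and 4.87 in hSRY-OFF and 7.50, 7.74 and 7.54 in hSRY-ON. Its probe ILMN_2665133 was not detected on any hSRY-OFF array and was detected on all 3 hSRY-ON arrays. Its level was thus at least 4.93-fold higher in hSRY-ON, set against the dimmest probes detected on the hSRY-OFF arrays (limma adjusted p = 0.000202). This bound holds for background-corrected values, and without that correction the fitted change was 1.04, or 2.06-fold. Of 8 tested cardiac muscle markers (9 probes) 2 were higher and 2 lower, each by 1 probe, against 13.6% and 13.3% of all tested probes on the array. The summed linear level of the 8 was 7588 to 10204 in hSRY-OFF and 5657 to 11088 in hSRY-ON. The part of heart tissue in the value of Timp4 was not tested.

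Timp1, a soluble inhibitor that binds the proenzyme of MMP9, had 2 probes that gave nearly the same values. The probe ILMN_2769918 read 9.33, 9.17 and 9.49 in hSRY-OFF and 10.34, 10.06 and 10.12 in hSRY-ON. All hSRY-ON arrays lay above all hSRY-OFF arrays. The mean rose from 9.33 ± 0.16 to 10.17 ± 0.15 (SD, n = 3 each), a change of 0.84 (SE 0.14, limma adjusted p = 0.00687). The other probe, ILMN_3103896, rose by 0.82 (limma adjusted p = 0.00923). Timp3, which stays bound to the matrix and also inhibits ADAM17 and several ADAMTS enzymes, read 12.26, 12.47 and 12.46 in hSRY-OFF and 13.25, 13.30 and 12.91 in hSRY-ON by probe ILMN_2741096. The rise from 12.40 ± 0.12 to 13.15 ± 0.21 (SD, n = 3 each) was 0.75 (SE 0.15, limma adjusted p = 0.0116). Without hSRY-OFF replicate 1 the Timp3 change was 0.69 and missed the threshold (limma adjusted p = 0.0533, range over 18 alternatives 0.00174 to 0.0533). A second, dim Timp3 probe, ILMN_2614759, passed the detection limit once in hSRY-OFF and on 2 arrays of hSRY-ON, and differed by 0.34 (limma adjusted p = 0.409), with overlapping groups.

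Timp2, which together with MMP14 activates the proenzyme of MMP2, was the TIMP that did not pass. It read 13.36, 13.34 and 13.44 in hSRY-OFF and 12.99, 13.24 and 13.32 in hSRY-ON. The groups did not overlap, but the difference of -0.20 (SE 0.13, 95% interval -0.50 to 0.11) missed the threshold (limma adjusted p = 0.294). In the RefSeq annotation Timp1, Timp3 and Timp4 lie inside the genes Syn1, Syn3 and Syn2, which encode the synapsins of nerve endings. The Syn3 probe was not detected on any array, and the Syn1 probes were detected on no hSRY-OFF array and, for 1 of them, on 1 hSRY-ON array. The dim Syn2 probe was detected on all 3 hSRY-OFF arrays and on 1 hSRY-ON array. It read 6.05, 5.72 and 5.95 in hSRY-OFF and 5.04, 5.36 and 5.71 in hSRY-ON (limma adjusted p = 0.0802). The part of the synapsin genes in the TIMP values was not tested.

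Promoter sequences are shown for the TIMP genes that rose, for Adamtsl2, which had the largest change, and for Mmp3, which did not pass the test but holds the AP-1 motif. Each is the 250 bases before the gene's start, 5′ to 3′ on the strand of the gene, from RefSeq on GRCm38.p6. They lie at chrX:20869916-20870165 (+) for Timp1, chr10:86300162-86300411 (+) for Timp3, chr6:115252206-115252455 (-) for Timp4, chr2:27079129-27079378 (+) for Adamtsl2 and chr9:7445572-7445821 (+) for Mmp3. Capitals mark AACAAT, a core motif bound by SRY and SOX proteins, and TGAGTCA, the motif of AP-1, each on either strand.
Timp1: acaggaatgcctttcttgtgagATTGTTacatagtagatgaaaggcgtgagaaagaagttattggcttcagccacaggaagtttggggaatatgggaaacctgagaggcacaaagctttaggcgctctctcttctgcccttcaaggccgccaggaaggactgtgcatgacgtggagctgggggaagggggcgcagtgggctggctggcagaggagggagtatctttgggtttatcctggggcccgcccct
Timp3: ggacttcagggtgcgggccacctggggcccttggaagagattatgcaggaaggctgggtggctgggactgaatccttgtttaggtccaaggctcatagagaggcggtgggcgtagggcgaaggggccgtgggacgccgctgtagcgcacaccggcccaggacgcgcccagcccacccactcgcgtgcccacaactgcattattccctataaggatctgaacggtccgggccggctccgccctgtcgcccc
Timp4: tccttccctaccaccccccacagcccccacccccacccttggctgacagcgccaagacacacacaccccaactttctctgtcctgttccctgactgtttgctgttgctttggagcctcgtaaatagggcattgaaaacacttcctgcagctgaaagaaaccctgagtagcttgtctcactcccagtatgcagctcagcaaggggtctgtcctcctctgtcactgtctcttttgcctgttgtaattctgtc
Adamtsl2: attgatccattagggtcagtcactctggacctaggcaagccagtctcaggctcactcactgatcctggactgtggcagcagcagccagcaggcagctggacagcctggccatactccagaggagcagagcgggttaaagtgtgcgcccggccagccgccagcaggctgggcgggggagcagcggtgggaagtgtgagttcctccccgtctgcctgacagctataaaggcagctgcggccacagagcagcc
Mmp3: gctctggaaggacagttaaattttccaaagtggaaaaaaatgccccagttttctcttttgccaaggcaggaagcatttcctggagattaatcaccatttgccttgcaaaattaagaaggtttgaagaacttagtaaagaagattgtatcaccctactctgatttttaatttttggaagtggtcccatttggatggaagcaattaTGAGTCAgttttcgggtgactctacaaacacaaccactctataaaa
Windows were found for 41 of the 68 genes (43 windows), including 9 of the 14 genes that passed the test. AACAAT on either strand was in 3 of the 43 windows (6.98%), against 9.42% of 32851 windows of all genes. Among the 9 genes that passed it was in the window of Timp1 alone, 228 bases before the start. TGAGTCA on either strand was in 7 of the 43 windows (16.3%), against 4.46% of all windows. These were the windows of Mmp1a, Mmp1b, Mmp3, Mmp7, Mmp10, Mmp13 and Adam29, and 0 of the 9 genes that passed had it. Among these genes only Mmp1a and Mmp3 had a tested probe, so the others could not have passed.

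The 3 ADAMTS-like genes rose, with a median change of 1.27. Adamtsl2, a secreted glycoprotein that binds fibrillin-1 and latent TGF-beta binding protein, had the largest change of all 42 tested probes. It read 7.01, 7.32 and 7.05 in hSRY-OFF and 10.50, 10.42 and 10.28 in hSRY-ON. The mean rose from 7.13 ± 0.17 to 10.40 ± 0.11 (SD, n = 3 each), which is 9.68-fold, with a change of 3.27 (SE 0.14, limma adjusted p = 0.000202). Without background correction the change was 2.42, or 5.34-fold. Adamtsl4, a protein of fibrillin microfibrils that is needed to hold the lens of the eye, read 7.51, 7.63 and 7.76 in hSRY-OFF and 9.17, 8.85 and 8.67 in hSRY-ON. The rise from 7.63 ± 0.13 to 8.90 ± 0.25 (SD, n = 3 each) was 1.27 (SE 0.16, limma adjusted p = 0.00298). Adamtsl5, a further secreted ADAMTS-like protein, read 5.66, 5.55 and 5.94 in hSRY-OFF and 6.86, 6.78 and 6.36 in hSRY-ON. It rose from 5.72 ± 0.20 to 6.67 ± 0.27 (SD, n = 3 each), a change of 0.95 (SE 0.18, limma adjusted p = 0.0105). With no background correction and a single scaling factor per array the Adamtsl5 change was 0.26 and missed the threshold (limma adjusted p = 0.0665, range over 18 alternatives 0.00529 to 0.0665).

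Of the 9 tested probes of ADAM proteases, 2 rose and 2 fell. Adam28, a protease known from lymphocytes and epithelia, read 6.21, 5.69 and 6.04 in hSRY-OFF and 8.66, 8.48 and 8.96 in hSRY-ON by probe ILMN_2664739. The rise from 5.98 ± 0.26 to 8.70 ± 0.24 (SD, n = 3 each) was 2.72 (SE 0.19, limma adjusted p = 0.000603), or 6.61-fold, and 2.75-fold without background correction. The other Adam28 probes were not detected on any array. Adam8, a protease of neutrophils and macrophages, read 5.52, 5.46 and 5.22 in hSRY-OFF and 6.44, 7.22 and 7.17 in hSRY-ON by probe ILMN_1224005. It rose from 5.40 ± 0.16 to 6.95 ± 0.44 (SD, n = 3 each), a change of 1.55 (SE 0.23, limma adjusted p = 0.00481), with 2 of the 3 hSRY-OFF arrays above the detection limit. The second Adam8 probe, ILMN_2756613, read 5.46, 5.57 and 5.96 in hSRY-OFF and 5.65, 7.21 and 7.26 in hSRY-ON. Here hSRY-ON replicate 1 lay within the hSRY-OFF range, and the difference of 1.04 (SE 0.43) missed the threshold (limma adjusted p = 0.112).

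Adam12, a protease of muscle and connective tissue that cleaves insulin-like growth factor binding proteins, had the largest fall. It read 7.48, 7.31 and 7.14 in hSRY-OFF and 4.79, 4.83 and 5.25 in hSRY-ON. Its probe ILMN_1243254 was not detected on any hSRY-ON array, so its level was at least 3.75-fold lower there on background-corrected values (limma adjusted p = 0.000603). Without that correction the fitted change was -0.85, a 1.81-fold lower level. Adam15, a protease of vascular and other cells with a role in adhesion, read 11.41, 11.51 and 11.30 in hSRY-OFF and 11.14, 10.73 and 10.91 in hSRY-ON by probe ILMN_3139103. It fell from 11.41 ± 0.11 to 10.93 ± 0.21 (SD, n = 3 each), a change of -0.48 (SE 0.14, limma adjusted p = 0.0473). The dim Adam15 probe ILMN_2718144 was above the detection limit in all hSRY-OFF mice, at 5.90, 5.39 and 5.48, and in no hSRY-ON mouse, at 5.23, 4.96 and 5.25 (limma adjusted p = 0.0974). Adam17, the sheddase of TNF and of the EGF receptor ligands, read 10.10, 10.19 and 10.53 in hSRY-OFF and 10.35, 10.31 and 10.24 in hSRY-ON. The hSRY-ON arrays lay within the hSRY-OFF range, and the difference was 0.03 (SE 0.14, 95% interval -0.31 to 0.37, limma adjusted p = 0.884).

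Of the 11 tested MMP probes, 2 fell. Mmp17, a membrane-type MMP with a lipid anchor, read 6.39, 6.17 and 6.36 in hSRY-OFF and 5.56, 5.45 and 5.28 in hSRY-ON. It fell from 6.30 ± 0.12 to 5.43 ± 0.14 (SD, n = 3 each), a change of -0.87 (SE 0.13, limma adjusted p = 0.00504), with 2 of 3 hSRY-ON arrays above the detection limit. Mmp11, the stromelysin of connective tissue cells that furin activates inside the cell, read 10.27, 10.33 and 10.28 in hSRY-OFF and 9.87, 9.85 and 9.99 in hSRY-ON. The fall from 10.29 ± 0.03 to 9.90 ± 0.08 (SD, n = 3 each) was -0.39 (SE 0.11, limma adjusted p = 0.0373).

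Mmp14, the membrane-type MMP that activates the proenzyme of MMP2, read 12.43, 12.29 and 12.06 in hSRY-OFF and 11.47, 11.93 and 11.89 in hSRY-ON. The groups did not overlap, but the difference of -0.49 (SE 0.17, 95% interval -0.90 to -0.09) missed the threshold (limma adjusted p = 0.0721). Mmp14 passed in 3 of 18 alternatives, which were no background correction, the same with a single scaling factor, and a variance trend with robust estimation (limma adjusted p = 0.0376, 0.0356 and 0.0293, range over all 0.0293 to 0.220). The third tested membrane-type gene, Mmp15, differed by -0.38 (limma adjusted p = 0.0537). The gelatinase Mmp2, which cuts basement membrane collagen, read 13.70, 13.90 and 13.85 in hSRY-OFF and 13.40, 13.59 and 13.71 in hSRY-ON. These ranges overlapped slightly, and the difference was -0.25 (SE 0.13, 95% interval -0.56 to 0.06, limma adjusted p = 0.196).

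**Figure D3:**
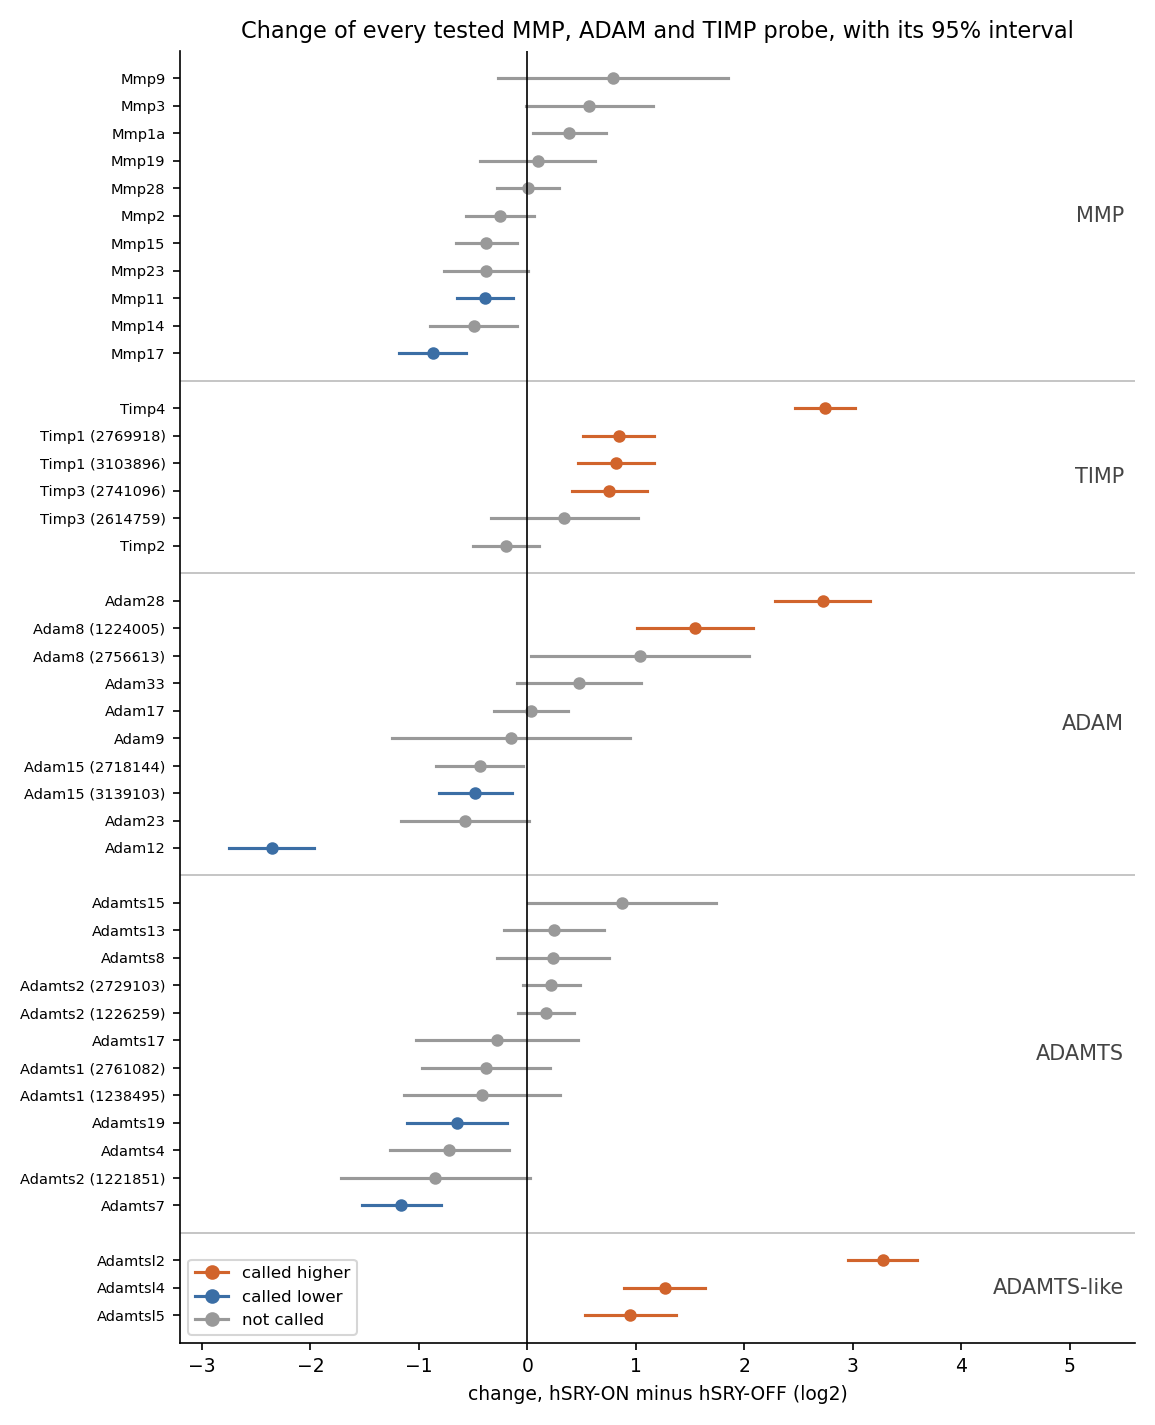
Change in log2 intensity, hSRY-ON minus hSRY-OFF, of the 42 tested probes (points) with 95% intervals (lines) from the limma fit across all probes, by family. For Timp4, Adam12 and Adam15 probe ILMN_2718144, each not detected in 1 group, the fitted change is drawn and not the bound. Probes that rose are in the TIMP, ADAM and ADAMTS-like families, and those that fell are in the MMP, ADAM and ADAMTS families.

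The gelatinase Mmp9, which neutrophils store in granules, differed among the hSRY-ON mice. It read 5.96, 6.31 and 6.01 in hSRY-OFF and 5.85, 6.97 and 7.83 in hSRY-ON. Replicate 1 of hSRY-ON lay below every hSRY-OFF array and replicates 2 and 3 lay above every one. The difference of 0.79 (SE 0.45, 95% interval -0.27 to 1.85) missed the threshold (limma adjusted p = 0.230), and without hSRY-ON replicate 1 it was 1.31 and passed (limma adjusted p = 0.0153, range over 18 alternatives 0.0153 to 0.509). Of 12 neutrophil markers 9 were tested, all 9 had changes above 0 and 4 were higher, namely Lcn2, Ltf, S100a8 and S100a9. Their summed linear level was 8233 to 8679 in hSRY-OFF and 16217, 20529 and 48630 in hSRY-ON replicates 1, 2 and 3. The order of the 3 hSRY-ON mice was the same for Mmp9 and for this sum. Replicate 1, however, lay above every hSRY-OFF array for the sum and below every one for Mmp9. The sum is linear, so the brightest markers weigh most in it, and single markers could differ from it. Camp, 1 of the 9, read 7.10, 7.14 and 7.81 in hSRY-OFF and 6.70, 8.13 and 10.25 in hSRY-ON. For Camp, as for Mmp9, hSRY-ON replicate 1 lay below every hSRY-OFF array (limma adjusted p = 0.378 for the difference between groups). The neutrophil receptor gene Cxcr2, named Il8rb on the array, was not detected on any array, and the 3 probes of the granule peroxidase Mpo were each detected on 1 or 2 hSRY-ON arrays alone. Of 8 tested macrophage markers 6 were higher, and their sum was 34884 to 35701 in hSRY-OFF and 46439 to 49715 in hSRY-ON. Of 11 tested lung epithelial markers 3 were higher (Napsa, Sftpb and Sftpd), with sums of 129059 to 132782 in hSRY-OFF and 141673 to 148872 in hSRY-ON. A marker gene counted as higher where any of its tested probes passed. By probe, 4 of 9 neutrophil, 6 of 12 macrophage and 6 of 17 epithelial probes were higher, against 13.6% of all tested probes on the array. The part of these cell types in the values of Mmp9, Adam8, Adam28 and the TIMP and ADAMTS-like genes that rose was not tested.

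**Figure D4:**
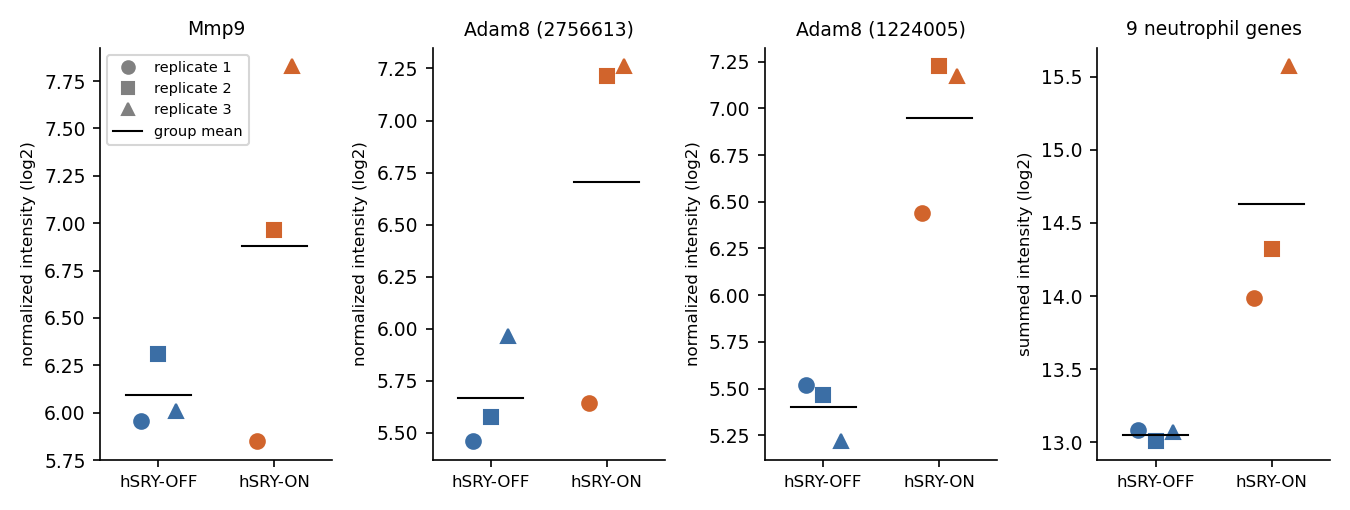
Normalized log2 intensity of Mmp9 and of both Adam8 probes, and the log2 of the summed level of 9 neutrophil marker genes, on each array (vertical axes), with the group means as lines. For Mmp9 and Adam8 probe ILMN_2756613, hSRY-ON replicate 1 lies beside the hSRY-OFF arrays, while for Adam8 probe ILMN_1224005 and the marker sum all hSRY-ON arrays lie above.

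Of the 12 tested ADAMTS probes, 2 fell and none rose in limma (1 at an unadjusted p under 0.05, Adamts15). Adamts7, which degrades cartilage oligomeric matrix protein, read 8.12, 8.19 and 8.11 in hSRY-OFF and 6.97, 6.72 and 7.25 in hSRY-ON. It fell from 8.14 ± 0.05 to 6.98 ± 0.26 (SD, n = 3 each), a change of -1.16 (SE 0.15, limma adjusted p = 0.00352). Adamts19, an ADAMTS protease linked to heart valve disease, read 9.06, 9.24 and 9.30 in hSRY-OFF and 8.32, 8.36 and 8.97 in hSRY-ON, where replicate 3 lay near the hSRY-OFF arrays. It fell from 9.20 ± 0.12 to 8.55 ± 0.36 (SD, n = 3 each), a change of -0.65 (SE 0.20, limma adjusted p = 0.0478). The 5 probes of hyalectanases, which cut proteoglycans such as versican, did not pass and ranged from -0.72 (Adamts4) to 0.87 (Adamts15). Adamts15 stood out by hSRY-ON replicate 2, at 9.72 against 8.21 and 8.46 in the other hSRY-ON mice and a mean of 7.93 ± 0.09 (SD, n = 3) in hSRY-OFF (limma adjusted p = 0.119). The 3 probes of Adamts2, which removes the amino-terminal propeptide of procollagens, did not point the same way. The probes ILMN_1226259 and ILMN_2729103 differed by 0.18 and 0.22 without overlap of the groups (limma adjusted p = 0.270 and 0.172), whereas ILMN_1221851, detected on 1 hSRY-ON array, differed by -0.85 with hSRY-ON replicate 1 at the hSRY-OFF level (limma adjusted p = 0.131).

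The calls of the 3 smallest falls were sensitive to the arrays used. When 1 array was left out at a time, Mmp11 and Adamts19 passed only without hSRY-ON replicate 3 and Adam15 only without hSRY-ON replicate 1. Over 18 alternatives Mmp11 passed in 11 (limma adjusted p from 0.00860 to 0.130), Adamts19 in 9 (0.00688 to 0.136) and Adam15 in 9 (0.0110 to 0.157). Adam12, Adamts7 and Mmp17 passed in every alternative in which they were tested, as did Timp1, Timp4, Adamtsl2, Adamtsl4, Adam28 and Adam8 probe ILMN_1224005. Without background correction the changes of other dim probes were smaller too, at 0.55 for Adam8, 0.33 for Adamtsl5, -0.66 for Adamts7 and -0.26 for Mmp17. Other cell type lists were described in the same lungs, in which 13.6% of all tested probes were higher and 13.3% lower. Of 10 tested mesenchymal markers 1 was higher and 2 lower, with sums of 50845 to 54385 in hSRY-OFF and 39154 to 49144 in hSRY-ON. Of 7 tested endothelial markers 3 were lower, with sums of 42221 to 45672 and 30999 to 34603. All 8 tested proliferation genes were lower by at least 1 probe, with sums of 10154 to 12713 and 3330 to 7080. By probe, 1 of 17 mesenchymal probes was higher and 4 were lower, and 3 of 8 endothelial and 10 of 12 proliferation probes were lower. The part of these cell types and of proliferation in the falls of Adam12, Adamts7, Mmp17, Mmp11, Adam15 and Adamts19 was not tested.

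The remaining tested probes did not pass. All 27 probes that did not pass ranged from -0.85 to 1.04, and 7 of them had an unadjusted p under 0.05. The group values did not overlap for Mmp1a (0.39, limma adjusted p = 0.0847), Mmp15, Mmp23 (-0.38, limma adjusted p = 0.129) and Adamts4 (limma adjusted p = 0.0585) among them. Adam23, which has no protease activity and is known from neurons, differed by -0.57 (limma adjusted p = 0.131), with hSRY-ON replicate 1 at the hSRY-OFF level. The spread was larger in hSRY-ON for 31 of the 42 probes (73.8%, against 73.6% of all tested probes).

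Regulators, partners and substrates of these enzymes were described from 4 lists. Over the array, 13.6% of all tested probes rose and 13.3% fell. A listed gene counted as risen or fallen where any of its tested probes passed. The 4 lists had 18, 15, 17 and 8 tested probes, in the order given below. List medians take the brightest tested probe of each gene, which for all 10292 tested genes gave a median change of -0.0088. Of 20 genes that activate or inhibit MMPs 14 were tested, 1 rose and 2 fell, and the median change was 0.14. Ctsk, the collagen-degrading cathepsin K and also a macrophage marker here, rose by 0.97 (limma adjusted p = 0.0156). Reck, a membrane-anchored inhibitor of MMP2, MMP9 and MMP14, fell by 0.44 (limma adjusted p = 0.0368). Serpine2, an inhibitor of thrombin and urokinase, fell by 0.55 (limma adjusted p = 0.0460). Of 14 genes for partner proteins of ADAMs 12 were tested, 1 rose and 1 fell, with a median of -0.08. Tspan33, a tetraspanin that binds ADAM10, rose by 1.33 (limma adjusted p = 0.00809). Mad2l2, which binds the tail of ADAM9 and also acts in DNA repair, was not detected in hSRY-ON and was at least 1.47-fold lower (limma adjusted p = 0.00665). The iRhom genes Rhbdf1 and Rhbdf2, whose products carry ADAM17 to the cell surface, differed by -0.00378 and 0.21 (limma adjusted p = 0.983 and 0.349).

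Of 23 genes for proteins shed by ADAMs 15 were tested, 5 rose and 2 fell, with a median of 0.22. Il6ra, the receptor of interleukin 6, rose by 1.61 (limma adjusted p = 0.00793). Cxcl16, a chemokine that ADAM10 releases, rose by 0.78 (limma adjusted p = 0.00799). Nrg1, a ligand of the ERBB receptors, rose by 1.62 (limma adjusted p = 0.00940) and was detected on 1 hSRY-OFF array. Btc and Cx3cl1 also rose, and App and Cdh5 fell. Of 13 substrates of ADAMTS enzymes 6 were tested, 2 fell and none rose in limma (0 at an unadjusted p under 0.05), with a median of -0.35. Col2a1, the collagen of cartilage, changed by -1.76 and -1.38 by its probes (limma adjusted p = 0.00369 and 0.00365), each detected on 1 hSRY-ON array. Col1a1, a chain of type I collagen, fell by 0.60 (limma adjusted p = 0.0494).

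**Figure D5:**
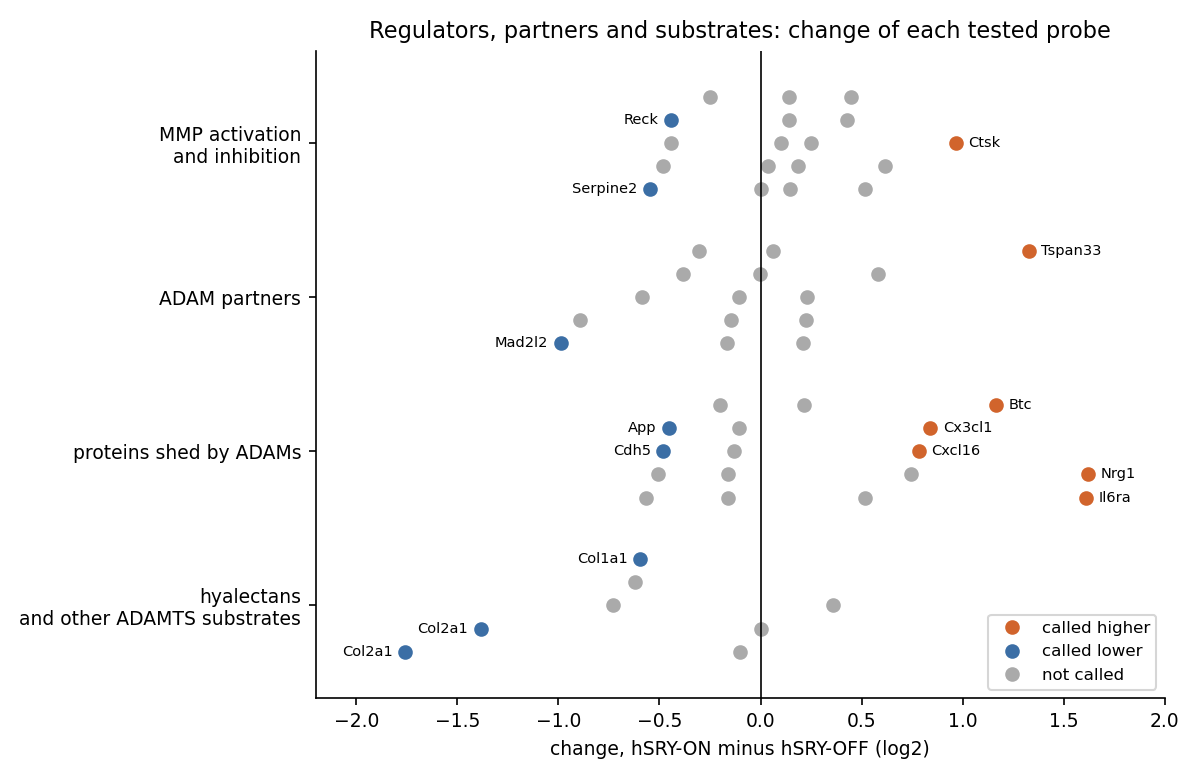
Change in log2 intensity, hSRY-ON minus hSRY-OFF (horizontal axis), of each tested probe of genes that act on or are cut by MMPs, ADAMs and ADAMTS enzymes, by list, with the probes that passed the test coloured and named. Proteins shed by ADAMs had 5 genes that rose and 2 that fell, and the ADAMTS substrates had 2 that fell, Col2a1 (both probes) and Col1a1.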

How the data were processed

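Biotin-labelled cRNA from the lungs of 6 mice, biological triplicates of each group, was hybridised to 6 Illumina MouseRef-8 arrays. The authors deposited, for each probe and array, a bead intensity without background correction or normalization (array medians 177.1 to 204.0). They also deposited a detection p-value from the negative controls. The software that summarised the beads is not given in the sources used here. The study analysed its arrays with TCC, a method for counts, and the analysis here used limma 3.58.1 (R 4.3.3) instead. Following neqc, background was inferred from those p-values and removed with an offset of 16, and the arrays were quantile-normalized and put on the log2 scale. The offset compresses the changes of dim probes. Probes detected on at least 3 of 6 arrays (13841 of 25697) were fitted with lmFit and eBayes, with Benjamini-Hochberg adjustment over all of them. An exact permutation test of 3 against 3 arrays cannot give a p below 0.1, so none was used for single probes. Where a probe was not detected in 1 group, its change is a bound against the lowest detected value of each array. The bound uses the probe's own value where that is higher.

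The genes were taken by their symbols, all 68 of which were found in RefSeq (1 as a synonym), and a gene that fits the pattern is not reported here. Timp1 to Timp4, Mmp2, Mmp9, Mmp14, Adam10, Adam17 and the largest rises and falls are given in full. Other probes that passed are given by change and p, the rest by counts, with genes named where their probes disagree, and from each list of related genes up to 3 of those that passed, by smallest p. Other genes that passed in a list are named without values. Further genes named as not passing were chosen after their values were seen. The genes, lists and tests were chosen with earlier results of these data known. The fit was tested on simulated data. The alternatives were 2 other background corrections, 2 other normalizations, no background correction with a single scaling factor, 3 other filters, a variance trend, array weights, 1 probe per gene, the replicate number as a block and each array left out.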

Additional observations from a re-analysis of the deposited data

How the results depend on the processing

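The number of probes that were higher in hSRY-ON, 9, ranged from 7 to 11 under other processing and from 8 to 12 with 1 array left out. The number that were lower, 6, ranged from 3 to 6 with 1 array left out, with 3 lower when any 1 of the hSRY-OFF arrays was left out. With no background correction and a single scaling factor per array, 10 were lower and 8 higher. The calls over all probes were 3728, and ranged from 1652 without hSRY-OFF replicate 1 to 4442 without hSRY-ON replicate 1. The deviations of same-numbered arrays from their group means correlated at -0.11, 0.10 and -0.09, and those of differently numbered arrays at -0.09 to 0.16. These values, from 3 arrays per group, cannot decide whether same-numbered mice were paired. With the replicate number as a block, 9 probes were higher and 3 lower, and the calls over all probes numbered 2655. The change of Adam17 turned to -0.029 with no background correction and a single scaling factor, to -0.053 without hSRY-OFF replicate 1 and to -0.0090 without hSRY-OFF replicate 2, reached 0.16 without hSRY-OFF replicate 3, and did not pass in any of them. For the 21 probes of the genes described in full or called, 335 of the recomputed values kept direction and side of the threshold, 27 lost the call, 4 gained it and 3 turned direction. The cause of these differences was not tested. Depth is not defined for arrays, and signal near background limits Timp4, Adam12, Adam28, Adam8, Adamtsl5, Mmp17 and Mmp9, whose values lie near or below the lowest detected levels of 5.22 to 5.46 on arrays of at least 1 group.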
